A study of Mus musculus with 12 samples.

Results

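The transcripts described here are 44 mouse genes of the cell cycle and DNA replication, measured in bone marrow-derived macrophages. They were taken by gene symbol from a list, and all 44 were among the 13232 genes of the deposited expression table. By textbook role, 21 act in G1, at the G1/S border or in replication, 21 act in G2 and mitosis, and 2 encode inhibitors of cyclin-dependent kinases. The macrophages were grown from the marrow of wild-type C57B6/J mice that had eaten either normal (ND) or high-fat food (HFD). Marrow cells of both diets were cultured with 20 ng/ml of the growth factor M-CSF in medium with 10% serum, and in serum-free macrophage medium with M-CSF from day 4. On day 7 both were kept for 1 h at 1% oxygen. The 6 libraries used are ND replicates 1 to 3 and HFD replicates 1 to 3, all under hypoxia. The 6 libraries at normal oxygen were not analysed here, so no value below describes the response to hypoxia. The labels give no age, sex or length of feeding, and do not say whether each replicate is a separate mouse, so the p-values measure the spread between these libraries.

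M-CSF is both the survival factor and the mitogen of macrophages. It induces D-type cyclins, whose kinases inactivate the retinoblastoma family and release E2F transcription factors. E2F then drives the genes of S phase: the E-type cyclins, the licensing factors that load the MCM helicase on DNA, and the enzymes that make deoxynucleotides. Later, MYB-MuvB and FOXM1 drive the genes of G2 and mitosis, among them cyclin B, the mitotic kinases and the spindle motors. Their promoters often carry CCAAT boxes, bound by NF-Y, and a cell cycle homology region (CHR), through which the DREAM complex represses them in resting cells. Bulk RNA averages all cells of a culture, so fewer cycling cells and less RNA per cycling cell cannot be told apart.

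The 2 groups of genes differ in promoter sequence, which was read here for the windows of 300 bases (250 before and 50 after the start site) that RefSeq gives on GRCm38.p6, the build also called mm10. A window was at hand for 36 of the 44 genes, 17 in each large group. On either strand, TTTGAA or TTCGAA (CHR letters) was present for 13 of 17 G2/M genes (76.5%), 3 of 17 G1/S genes (17.6%) and 17.0% of the 9021 genes of the table with a window. CCAAT was present for 15 of 17 G2/M genes (88.2%), 11 of 17 G1/S genes (64.7%) and 43.2% of those 9021 genes. The reverse held for the E2F letters, TTCCCGC or TTGGCGC or TTCGCGC, found for 10 of 17 G1/S genes (58.8%), 3 of 17 G2/M genes (17.6%) and 17.1% of the 9021. TTGGCGC can overlap CCAAT read on the other strand, and without such overlaps the E2F letters were present for 9 of 17 G1/S and 2 of 17 G2/M genes. A match describes letters in a window and is not evidence of binding.

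The promoters of 5 genes whose levels are given below are shown from 150 bases before the start site to 30 bases after it, 5′ to 3′ on the gene's strand, with matches in capitals. They show CCAAT letters near the start site in 4 G2/M genes, of which *Cdc20*, *Kif23* and *Cenpf* also have CHR letters and *Ccnb1* has none in its window, beside the G1/S gene *Pcna*. All 5 genes lie on the minus strand of GRCm38.p6.
Ccnb1 (chr13:100786457-100786636): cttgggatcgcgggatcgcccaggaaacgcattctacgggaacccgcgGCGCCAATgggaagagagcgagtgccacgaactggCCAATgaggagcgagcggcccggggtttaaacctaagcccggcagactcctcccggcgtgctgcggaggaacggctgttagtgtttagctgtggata
Cdc20 (chr4:118437314-118437493): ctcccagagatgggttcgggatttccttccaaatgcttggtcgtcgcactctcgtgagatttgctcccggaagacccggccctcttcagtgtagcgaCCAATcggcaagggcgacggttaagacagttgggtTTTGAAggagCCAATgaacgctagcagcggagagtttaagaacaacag
Kif23 (chr9:61946770-61946949): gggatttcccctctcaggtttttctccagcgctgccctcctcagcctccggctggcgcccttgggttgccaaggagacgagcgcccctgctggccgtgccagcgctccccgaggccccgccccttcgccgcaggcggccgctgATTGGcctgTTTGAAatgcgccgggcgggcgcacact
Cenpf (chr1:189688057-189688236): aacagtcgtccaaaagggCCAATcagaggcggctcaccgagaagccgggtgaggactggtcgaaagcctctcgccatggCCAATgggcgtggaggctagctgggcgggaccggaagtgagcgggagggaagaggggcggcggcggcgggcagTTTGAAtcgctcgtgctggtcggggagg
Pcna (chr2:132253151-132253330): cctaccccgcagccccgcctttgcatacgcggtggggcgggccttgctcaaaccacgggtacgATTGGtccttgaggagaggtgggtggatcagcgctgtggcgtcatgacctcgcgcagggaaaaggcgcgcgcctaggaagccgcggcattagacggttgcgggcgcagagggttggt
In *Cdc20* the CHR letters begin 18 bases before the start site, between CCAAT matches that begin 53 and 8 bases before it. In *Kif23* and *Cenpf* they begin at base 3 of the transcript. The *Ccnb1* window holds CCAAT at 99 and 67 bases before the start site, and its E2F letters overlap the former. In the stretch shown *Pcna* had only CCAAT, read on the other strand.

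The values analysed are gene counts that the authors scaled per library, called levels below. Estimated depth before scaling was lowest in ND replicate 3, and every HFD library (23017031 to 24491491 reads) was deeper than every ND library (19045979 to 22805246). Counting error was between 1.07% (*Pcna*) and 10.2% (*Ccne1*) of a gene's mean level. Over 10794 genes with a mean of at least 100, ND replicate 3 stood apart from the other ND libraries, with a score of 3.43 on the first principal component against -14.0 and -13.5, and 1.33 to 11.4 in HFD. All 10 macrophage markers were in the table, with a summed level, mostly *Lyz2*, of 357194 to 405840 in ND and 353976 to 414945 in HFD. Of these, *Adgre1* was higher (log2 fold change 0.16, limma adjusted p 0.520) and *Cd14* lower (-0.29, limma adjusted p 0.281) in HFD without overlap, and the diets overlapped for the other 8. Diets were compared with limma on log2(level + 1) over all 13232 genes, with p-values adjusted over all of them.

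No gene of the 44 passed an adjusted p of 0.05 in limma, as was true of the whole table (0 of 13232, 0%). At an unadjusted p under 0.05 there were 8 of the 44, all lower in HFD. The groups differed in where they lay. All 21 G2/M genes had a lower mean log2 level in HFD, against 51.1% of all genes, and their median log2 fold change was -0.23 (a ratio of HFD to ND of 0.853) against -0.0034 over all genes. Of these, 7 of 21 (33.3%) had an unadjusted p under 0.05 and were lower, where 5.18% of all genes were. The G1/S and replication genes centred near 0, with 9 of 21 lower, a median of 0.029 and 0 of 21 at an unadjusted p under 0.05 in either direction, against 10.6% of all genes (5.4% higher in HFD).

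Diets did not overlap and HFD was lower for 2 of 21 G2/M genes (9.52%), close to the 7.07% of all genes. No G1/S gene had diets that did not overlap in either direction, against 14.5% of all genes and 7.44% for HFD higher. For the other 19 G2/M genes the libraries of the diets overlapped.

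**Figure D1:**
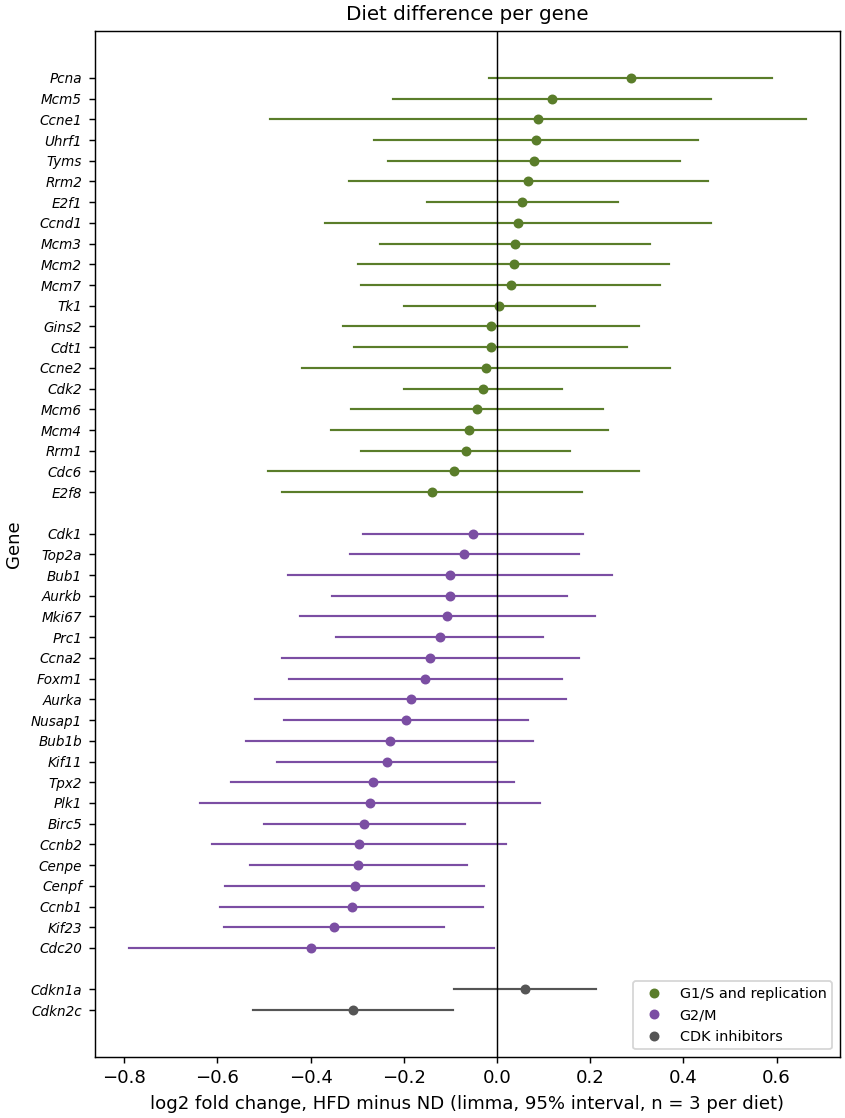
Log2 fold change of each of the 44 genes, HFD minus ND, with the 95% interval from limma (n = 3 libraries per diet). All 21 G2/M genes lie left of 0, and 7 of their intervals exclude 0, while the G1/S and replication genes lie on both sides and all of their intervals include 0.

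The median of the G1/S genes took either sign with 1 library left out, from -0.086 when ND replicate 2 was omitted to 0.14 when ND replicate 3 was. Omitting HFD replicate 3 gave -0.078, and omitting HFD replicate 1 gave 0.14. The G2/M count at an unadjusted p also depended on single libraries. It was 2 of 21 G2/M genes without HFD replicate 1 (6.18% of all genes being lower at that p in the same fit), 1 without HFD replicate 2 (2.75%), 2 without ND replicate 1 (2.63%), 4 without ND replicate 3 (8.44%), 7 without ND replicate 2 (3.75%) and 14 without HFD replicate 3 (4.7%). The median of the G2/M genes was -0.087 without HFD replicate 1, with 18 of 21 lower, and between -0.17 and -0.32 without any other library, with 20 or 21 lower. With limma's weights per library, 6 G2/M genes passed an adjusted p of 0.05 (*Ccnb1*, *Cdc20*, *Birc5*, *Kif23*, *Cenpe* and *Cenpf*), as did *Pcna* and *Cdkn2c*, in a fit that called 8.56% of all genes. The weights were highest for HFD replicate 2 (3.09) and ND replicate 1 (1.91), so that fit leans on these libraries. They were 0.89 for ND replicate 2, 0.78 for HFD replicate 1, 0.56 for HFD replicate 3 and 0.44 for ND replicate 3. In that fit 13 of 21 were lower at an unadjusted p under 0.05, against 13.9% of all genes, and without a mean-variance trend 4 were (4.92%).

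Cyclins A and B, with their kinase *Cdk1*, carry cells into mitosis. Here and below, levels are listed in the order of replicates 1, 2 and 3. *Ccnb1*, cyclin B1, was at 328, 257 and 300.0 under ND and 226, 216 and 272 under HFD. HFD replicate 3 lay above ND replicate 2, so the diets overlapped. Its log2 fold change was -0.31 (SE 0.13, limma adjusted p 0.423). Over 35.2% of the 75-base words of its longest GENCODE transcript *Ccnb1* is identical to other loci, chiefly the pseudogene *Ccnb1-ps*, so its level depends on how shared reads were assigned. *Ccnb1-ps* had mean levels of 107 ± 15.2 for ND against 94.1 ± 14.7 for HFD (SD, n = 3), with a log2 fold change of -0.19.

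The second B-type cyclin, *Ccnb2*, had no such copy and gave a like value, -0.30 (SE 0.14, limma adjusted p 0.508). Its HFD replicate 1 was the lowest library at 219, and HFD replicate 3 (323) lay within the ND range of 316 to 368. *Ccna2*, cyclin A2, which acts from S phase on, was at -0.14, and *Cdk1* was the least shifted of the G2/M genes at -0.051 (SE 0.11).

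*Foxm1*, a transcription factor that activates G2/M genes, was at 513, 419 and 528 in ND and at 368, 440 and 509 in HFD. The diets overlapped, with a log2 fold change of -0.15 (SE 0.13, limma adjusted p 0.724).

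*Cdc20* activates the ubiquitin ligase that ends metaphase. It had the most negative fold change of the 44 genes, -0.40 (SE 0.18, limma adjusted p 0.464). Levels were 239, 160 and 225 in ND and 146, 137 and 187 in HFD, so ND replicate 2 lay inside the HFD range and the other ND libraries lay above it.

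*Birc5* encodes survivin, a subunit of the chromosomal passenger complex. It was at 342, 335 and 373 in ND and at 295, 262 and 307 in HFD. All HFD libraries lay below all ND libraries, with a log2 fold change of -0.28 (SE 0.096, limma adjusted p 0.353).

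*Aurkb*, the kinase of that complex, differed less, at -0.10 (SE 0.11). *Aurka*, the spindle pole kinase, was at -0.19 (SE 0.15), and its activator *Tpx2* was at -0.27 (SE 0.14). *Plk1*, polo-like kinase 1, was at -0.27 (SE 0.16). All 4 had overlapping diets, and HFD replicate 1 was the lowest library for each.

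*Kif23* and *Kif11* are spindle motors, the former acting in cytokinesis and the latter in pole separation. *Kif23* was at 897, 736 and 753 in ND and at 579, 586 and 708 in HFD, without overlap. Its log2 fold change was -0.35 (SE 0.11, limma adjusted p 0.310). For *Kif11* the levels were 864, 715 and 909 in ND and 639, 698 and 770 in HFD, where HFD replicate 3 lay above ND replicate 2. The log2 fold change of *Kif11* was -0.24 (SE 0.11, limma adjusted p 0.471). *Prc1*, the midzone protein that bundles microtubules for *Kif23*, was at -0.12 (SE 0.099), and *Nusap1*, another spindle protein, was at -0.20 (SE 0.12).

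The kinetochore proteins *Cenpe* and *Cenpf* shared a pattern in which HFD replicates 1 and 2 were low and HFD replicate 3 was not. *Cenpe* was at 770, 762 and 711 in ND and at 546, 573 and 718 in HFD (log2 fold change -0.30, SE 0.10, limma adjusted p 0.362). *Cenpf* was at 1026, 921 and 864 in ND and at 690.1, 672 and 933 in HFD (log2 fold change -0.31, SE 0.12, limma adjusted p 0.429). In both genes HFD replicate 3 lay inside the ND range. The spindle checkpoint kinases *Bub1* and *Bub1b* were at -0.10 (SE 0.16) and -0.23 (SE 0.14).

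*Mki67*, the proliferation marker Ki-67, and *Top2a*, topoisomerase II alpha, are the usual markers of cycling cells, and neither separated the diets. *Mki67* was at 5178, 4829 and 4407 in ND and at 3719, 4109 and 5771 in HFD. Its highest and lowest libraries were both HFD, with a log2 fold change of -0.11 (95% interval -0.42 to 0.21, limma adjusted p 0.837). *Top2a* was at 3122, 2690 and 3303 in ND and at 2574, 2746 and 3393 in HFD, with a log2 fold change of -0.070 (95% interval -0.32 to 0.18, limma adjusted p 0.866).

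**Figure D2:**
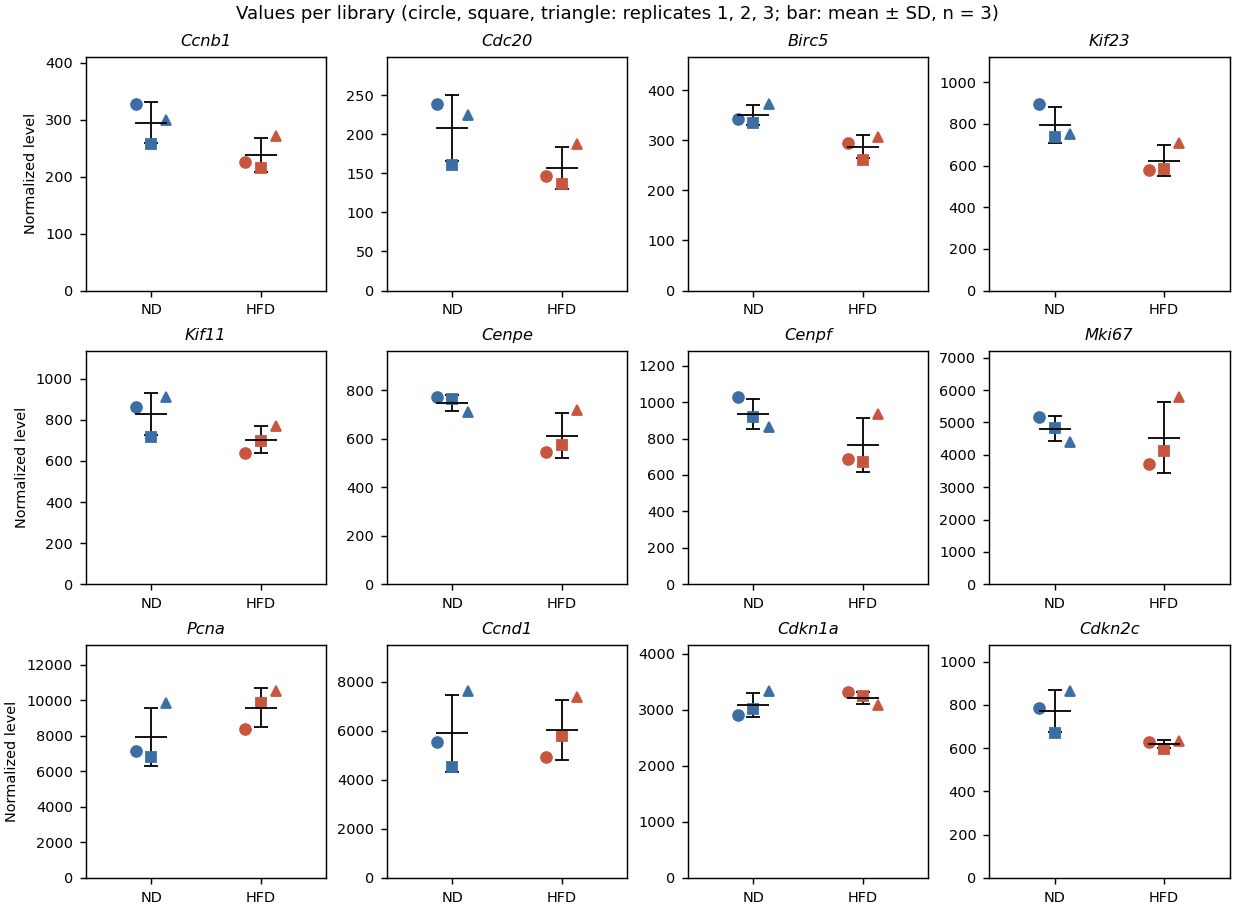
Normalized level of 12 genes in each library, in ND (blue) and HFD (red), with symbols for replicates 1, 2 and 3 and a bar for the mean ± SD (n = 3). Among those shown, only *Birc5*, *Kif23* and *Cdkn2c* have diets that do not overlap, and the triangle for HFD replicate 3 is the highest HFD point in every panel but that of *Cdkn1a*.

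Among the G1/S genes, the G1 cyclin *Ccnd1*, a target of M-CSF signalling, was at 5544, 4533 and 7618 in ND and at 4942, 5773 and 7365 in HFD. ND held both the lowest and the highest library, and the log2 fold change was 0.045 (95% interval -0.37 to 0.46, limma adjusted p 0.955). A stretch of 23.4% of its exons overlaps a gene on the other strand in GENCODE, and the use of strand in counting is not given in the sources used here. The E-type cyclins, which start S phase with *Cdk2*, were at 0.088 (*Ccne1*, SE 0.26) and -0.024 (*Ccne2*, SE 0.18), and *Cdk2* itself was at -0.030 (SE 0.075). *Cdk2* varied least of the 44 genes, with an SD of 0.061 over the 6 log2 levels, and *Ccne1* varied most, with 0.38.

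*E2f1*, an activator of S phase genes, was at 594, 576 and 712 in ND and at 625, 658 and 663 in HFD. All HFD libraries lay inside the ND range, and the log2 fold change was 0.054 (95% interval -0.15 to 0.26, limma adjusted p 0.877). *E2f8*, a repressor that E2F itself induces, had the most negative value of the G1/S group, -0.14 (SE 0.14).

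The licensing factors *Cdc6* and *Cdt1* load the MCM helicase, a ring of 6 proteins all measured here, and had log2 fold changes of -0.093 and -0.014. *Mcm2* was at 695, 593 and 817 in ND and at 590.3, 707 and 869 in HFD, and its log2 fold change was 0.036 (95% interval -0.30 to 0.37, limma adjusted p 0.956). The 6 subunits ran from -0.060 (*Mcm4*) to 0.12 (*Mcm5*), with *Mcm3* at 0.038, *Mcm6* at -0.043 and *Mcm7* at 0.029. Each was highest in ND replicate 3 or HFD replicate 3, and lowest in ND replicate 2 or HFD replicate 1. *Gins2*, a subunit of the GINS complex that activates the helicase, was at -0.013, and 67.3% of its exons overlap *Gse1* on the other strand.

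*Pcna*, the sliding clamp of the replication fork, had the largest log2 fold change of the group. It was at 7140, 6808 and 9824 in ND and at 8372, 9867 and 10502 in HFD, where ND replicate 3 lay inside the HFD range and the other ND libraries lay below it. The log2 fold change was 0.29 (95% interval -0.017 to 0.59, limma adjusted p 0.503). Per kb of exon *Pcna* had the highest mean level of the 44 genes, 3650 per kb, followed by *Ccnd1* at 1270 and *Cdkn1a* at 886. It shares 23.7% of its 75-base words with the pseudogene *Pcna-ps2*, with mean levels of 3531 ± 646 for ND against 3930 ± 786 for HFD (SD, n = 3), so its level is uncertain in the same way as that of *Ccnb1*. Copies also shared 14.5% of the words of *Mcm7* and 11.3% of those of *Uhrf1*, whose product recruits the maintenance DNA methyltransferase to new DNA and which was at 0.084.

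The enzymes of deoxynucleotide supply were at -0.067 (*Rrm1*) and 0.067 (*Rrm2*) for ribonucleotide reductase, 0.079 for *Tyms*, thymidylate synthase, and 0.0052 for *Tk1*, thymidine kinase. Of the 21 G1/S genes, 19 changed sign in at least 1 fit without a library or with another setting, so no direction is given for them. The exceptions were *Pcna*, positive in every fit run, and *E2f8*, negative in every fit run. *E2f8* reached -0.0030 with 1 library left out.

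Of the inhibitors, *Cdkn2c* belongs to the INK4 family, which blocks the kinases of D-type cyclins. It was at 784, 669 and 863 in ND and at 629, 597 and 633 in HFD, without overlap. Its log2 fold change was -0.31 (SE 0.096, limma adjusted p 0.319), and it ran from -0.41 to -0.22 when a library was left out. *Cdkn1a*, the inhibitor that p53 induces, was at 2906, 3018 and 3330 in ND and at 3308, 3238 and 3091 in HFD. All HFD libraries lay inside the ND range (log2 fold change 0.060, 95% interval -0.092 to 0.21, limma adjusted p 0.804).

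**Figure D3:**
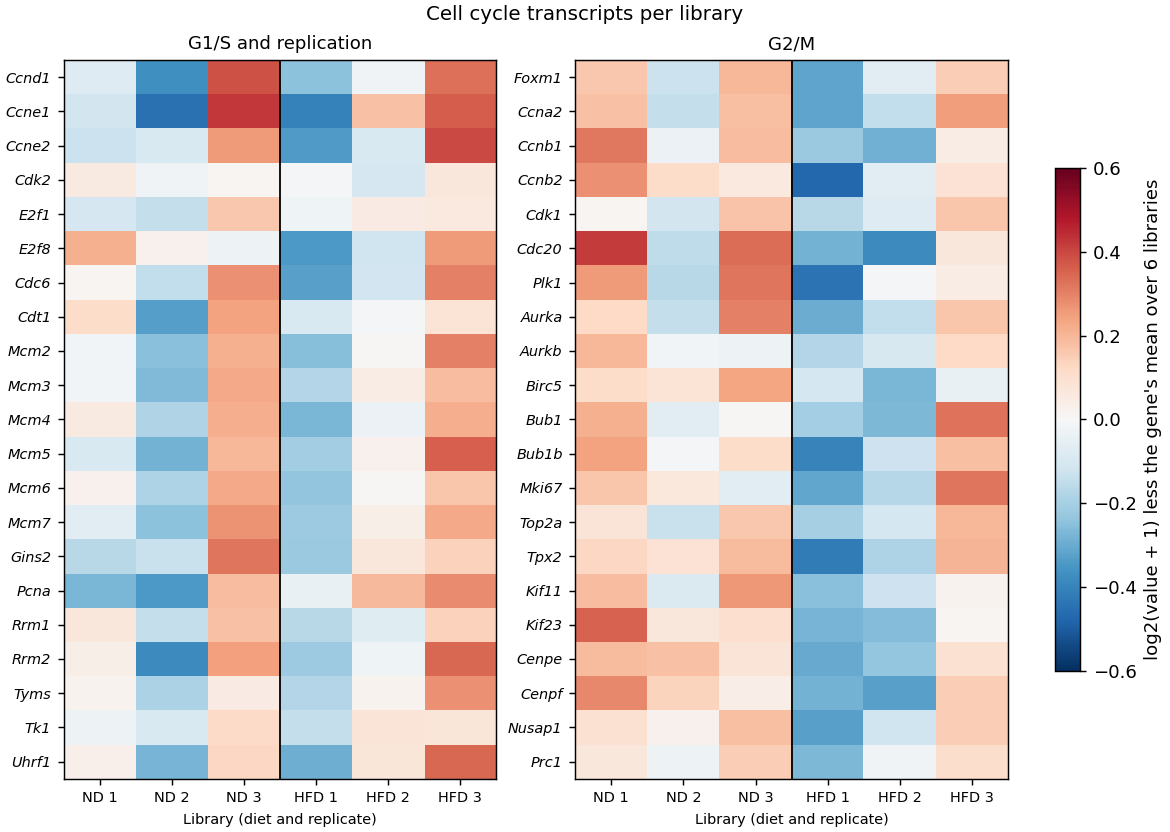
Log2 level of the G1/S and replication genes (left) and G2/M genes (right) in each library, less the gene's mean over the 6 libraries, in colour (red above, blue below). ND replicate 3 and HFD replicate 3 are high and ND replicate 2 and HFD replicate 1 low in the left panel, while in the right panel HFD replicates 1 and 2 are low.

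Within each group most genes were high or low in the same libraries. Of the 21 G1/S genes, 10 were highest in ND replicate 3 and 11 in HFD replicate 3, while 10 were lowest in ND replicate 2, 10 in HFD replicate 1 and 1 in HFD replicate 2. Of the 21 G2/M genes, 16 were lowest in HFD replicate 1 and 5 in HFD replicate 2, and 8 were highest in ND replicate 1, 8 in ND replicate 3 and 5 in HFD replicate 3. The SD of log2 levels over the 6 libraries was 0.22 at the median G1/S gene and 0.23 at the median G2/M gene, against 0.13 over all genes.

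The mean log2 level of each group, taken relative to each gene's mean, describes the same pattern and was not tested. For the G1/S genes it was -0.022, -0.21 and 0.20 for ND replicates 1, 2 and 3, against -0.21, 0.0089 and 0.23 for HFD, so both diets span nearly the same range. For the G2/M genes it was 0.19, -0.023 and 0.15 in ND and -0.29, -0.17 and 0.13 in HFD, where HFD replicate 3 lay among the ND libraries. The G2/M level less the G1/S level of the same library was 0.21, 0.19 and -0.054 in ND and -0.077, -0.17 and -0.10 in HFD. On this scale, which was not among the planned results, every HFD library lay below every ND library. ND replicate 3 (-0.054) was close to HFD replicate 1 (-0.077), and no like share over all genes was taken. The mean difference between diets was -0.23, and -0.32 to -0.19 without any 1 library.

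**Figure D4:**
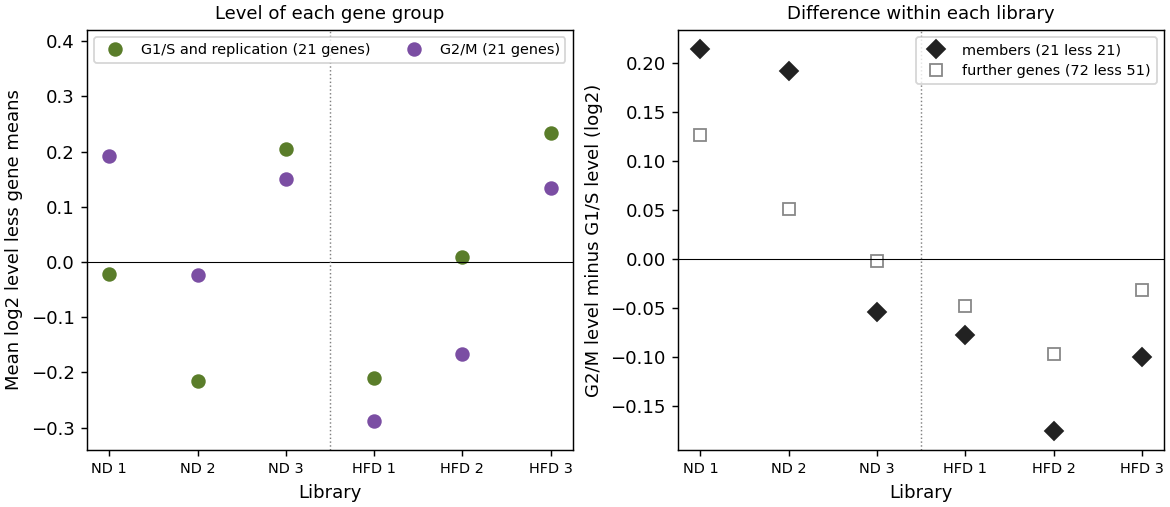
Left, mean log2 level of the G1/S and G2/M genes per library, relative to each gene's mean over 6 libraries. Right, the G2/M level minus the G1/S level of the same library for the 42 genes and for further genes of each phase. The HFD libraries are all below 0 on the right, and ND replicates 1 and 2 are above 0. ND replicate 3 is also below 0. It is at -0.054 for the 42 genes, near HFD replicate 1 (-0.077), and at -0.0021 for the further genes.

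Other genes of each phase, listed from textbook knowledge, were read next. They come from the same libraries and were listed with earlier results known, so they are not an independent check. Of 73 further G2/M genes, 72 were in the table. HFD was lower for 66 of these, and the median log2 fold change was -0.15. That median was -0.072 without HFD replicate 1 and between -0.11 and -0.24 without any other library. At an unadjusted p under 0.05 there were 7 lower (9.72%, against 5.18% of all genes) and 0 higher. Only 3 were lower without overlap (4.17%, below the 7.07% of all genes), and these had the smallest p. *Cenpa*, the centromeric histone, was at 1832, 1893 and 1549 in ND and at 1441, 1140 and 1143 in HFD (log2 fold change -0.51, SE 0.11, limma adjusted p 0.197), and it passed the threshold without ND replicate 3, in a fit that called 233 of 13232 genes. *Cdc25b*, a phosphatase that activates *Cdk1*, was at -0.38 (SE 0.10, limma adjusted p 0.281), and *Hmmr*, a spindle protein, at -0.34 (SE 0.11, limma adjusted p 0.325). All 3 passed with limma's weights per library, where 8.56% of all genes did.

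Of 51 further G1/S and replication genes, all in the table, 37 were lower (72.5%, against 51.1% of all genes), with a median of -0.024. None (0) had an unadjusted p under 0.05, against 10.6% of all genes. The sign of that median turned without ND replicate 3 (0.029) or HFD replicate 1 (0.024). The genes with the smallest p were *Dbf4*, the activator of the replication kinase CDC7, at -0.14, the mismatch repair gene *Msh6* at -0.13 and *Pole2*, a subunit of DNA polymerase epsilon, at 0.19. The further G2/M level less the further G1/S level was 0.13, 0.051 and -0.0021 in ND and -0.047, -0.096 and -0.032 in HFD, again without overlap. Replication-dependent histone genes, which also belong to S phase, were mostly lower in HFD (median -0.20) and are described below.

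Of 40 further kinases, D cyclins, inhibitors, E2F and DREAM genes, 39 were in the table and 28 were lower (71.8%, against 51.1% of all genes). Their median was -0.055, which became -0.032 when ND replicate 3 was omitted and -0.088 when ND replicate 2 was. At an unadjusted p under 0.05, 2 were lower (5.13%, close to the 5.18% of all genes) and 0 higher. The 2 were *Lin52*, a subunit of the MuvB core, at 168 ± 13.4 for ND against 138 ± 6.71 for HFD (SD, n = 3), and *Skp2*, which targets the inhibitor p27 for degradation, at 543 ± 9.89 and 484 ± 15.6. Their log2 fold changes were -0.27 and -0.17, with limma adjusted p-values of 0.447 and 0.454. *Ccng2*, a cyclin of resting cells, followed at -0.19.

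**Figure D5:**
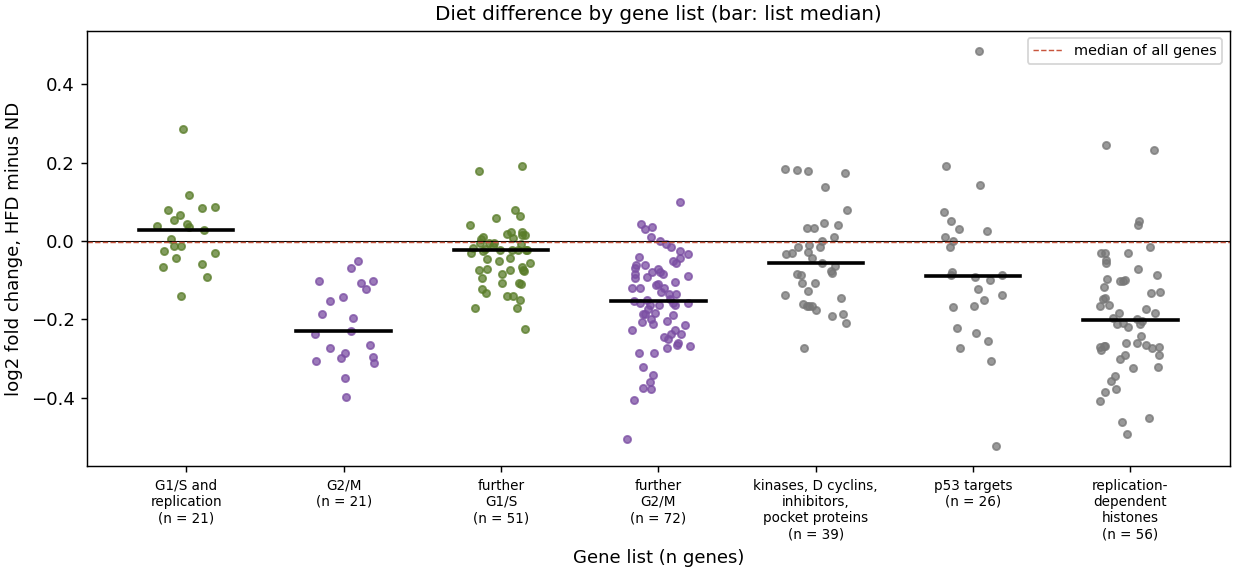
Log2 fold change, HFD minus ND, of each gene of the 2 large groups and of 5 further lists, with the list's median as a bar and the median of all genes as a dashed line. The G2/M genes, the further G2/M genes and the replication-dependent histone genes lie mostly below 0, with medians of -0.23, -0.15 and -0.20. The G1/S lists have medians of 0.029 and -0.024, with 9 of 21 and 37 of 51 genes lower.

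Markers of other cells that marrow cultures can hold were mostly missing from the table. Of 10 progenitor markers only *Kit* was listed, at 226, 134 and 117 in ND and 73.4, 72.4 and 104 in HFD, lower in HFD without overlap (log2 fold change -0.88, SE 0.25, limma adjusted p 0.284). *Cd34*, *Mpo* and *Elane* were not listed. For B cells only *Ighm* was listed (1889 to 3061 in ND and 1876 to 2075 in HFD) and for T and NK cells only *Cd4* (202 to 356 and 98.1 to 230.04). Both had a lower mean log2 level in HFD, with overlapping diets. The log2 fold changes were -0.40 (*Ighm*, limma adjusted p 0.410) and -0.70 (*Cd4*, limma adjusted p 0.448). The 7 of 10 neutrophil markers listed summed to 1776 to 2592 in ND and 2367 to 3750 in HFD, and all 7 had a higher mean log2 level in HFD. Of these, *Mmp8* (443 to 463 in ND and 707 to 1032 in HFD, log2 fold change 0.90, limma adjusted p 0.113) and *Mmp9* (1.21, limma adjusted p 0.270) were higher without overlap. The 4 of 10 stromal markers summed to 201 to 636 in ND and 61.7 to 417 in HFD, and all 4 were lower in HFD. The 3 of 10 dendritic cell markers summed to 2061 to 3074 in ND and 2862 to 3786 in HFD, but only *Itgax* was higher (log2 fold change 0.90). *Batf3* was at -0.047, and *Bst2* was lower in HFD without overlap (-0.36, limma adjusted p 0.195). No erythroid, mast cell or basophil marker was listed. The part of these cells in the G2/M result was not tested.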

How the data were processed

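Total RNA of 6 libraries was sequenced after removal of ribosomal RNA, as single reads of 75 bases from stranded libraries, per the labels' protocols. The submitters' processing notes name STAR, Partek and mm10. The deposited signal values are estimated gene counts divided by a size factor per library, as read from the values: in each library, 57.1% to 58.3% of the values from 5 to 1000 lay within 0.02 of a whole number of reads, and the others were fractions, so no count test was run. The counter, the annotation and any filter are not given in the sources used here, and the lowest gene had a mean of 3.36. NC in a column name was read as normal diet, and its final number as the replicate.

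Levels were compared on log2(value + 1) with limma 3.58.1 in R 4.3.3 (mean-variance trend, two-sided, Benjamini-Hochberg over 13232 genes). SE and intervals are limma's. Counting errors cover counting alone, because reads were counted without molecular identifiers. GENCODE M21 gave exon lengths, overlaps and shared words, and RefSeq the promoters. The genes and lists were chosen with earlier results of these data known. Levels are given for every gene with an unadjusted p under 0.05 or without overlap and for 10 fixed genes, and of further lists the 3 genes with the smallest p are named. *H1f0* was left out of the histone list as replication-independent. Alternatives were other pseudocounts, filters and scalings, no trend, library weights, a term for the replicate number and leaving out each library.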

Additional observations from a re-analysis of the deposited data

How the results depend on the processing

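The median of the G2/M genes (-0.23) stayed negative in all 15 alternatives. The number of all genes with a limma adjusted p under 0.05 (0, with 1401 at an unadjusted p) was 1133 (3646) with library weights, and without 1 library ran from 0 to 233 (700 to 2309). Adding a replicate block gave 31 genes, none of them a member. Correlations of deviations between same-numbered libraries were -0.0087, -0.037 and -0.00069 over all genes, and showed no pairing. With so few libraries per diet they cannot exclude that same-numbered libraries are paired. The G2/M genes lower at an unadjusted p (7) were 4 without the trend, 13 with weights and 1 to 14 without 1 library, and those lower without overlap (2) were 2 to 16. The 16, without HFD replicate 3, stand against 12.4% of all genes, the 7 without ND replicate 2 against 11.9% and the 4 without ND replicate 3 against 18.2%, since fewer libraries overlap less often. With weights 6 passed the adjusted threshold. Of the G1/S genes, 1 passed with weights (*Pcna*), 2 to 19 were lower without 1 library (9 with all libraries), and 0 to 1 were lower at an unadjusted p or without overlap. At an unadjusted p 1 was higher with weights, with the replicate block, without ND replicate 3 and without HFD replicate 1 (0 in the main test). Without 1 library the p53 list's median was -0.13 to -0.045. Alternatives for the further lists and the G2/M less G1/S level were added after seeing the data.

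Without 1 library these genes took both signs: *Ccnd1* -0.13 to 0.25, *Ccne1* -0.11 to 0.32, *Ccne2* -0.23 to 0.14, *Cdk2* -0.071 to 0.013, *E2f1* -0.0042 to 0.15, *Cdc6* -0.27 to 0.047, *Cdt1* -0.18 to 0.10, *Mcm2* -0.11 to 0.17, *Mcm3* -0.086 to 0.16, *Mcm4* -0.18 to 0.063, *Mcm5* -0.032 to 0.25, *Mcm6* -0.15 to 0.065, *Mcm7* -0.087 to 0.17, *Gins2* -0.10 to 0.14 (0.12 with weights), *Rrm1* -0.16 to 0.0040, *Rrm2* -0.11 to 0.21, *Tyms* -0.039 to 0.19, *Tk1* -0.040 to 0.077 (-0.0071 scaled to the column total), *Uhrf1* -0.068 to 0.25, *Cdk1* -0.15 to 0.022, *Bub1* -0.29 to 0.0087, *Mki67* -0.29 to 0.023 and *Top2a* -0.19 to 0.012. The cause was not tested. *Ccne1* has no value at a minimum mean of 100.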

Other observations

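Histone genes of S phase were mostly lower in HFD. Total RNA includes histone mRNAs without poly(A) tails, and the table held 56 replication-dependent histone genes. HFD was lower for 52 of them (92.9%, against 51.1% of all genes), and the median log2 fold change was -0.20. At an unadjusted p under 0.05, 14 were lower (25%, against 5.18% of all genes) and 1 was higher. Without overlap, 10 were lower (17.9%, against 7.07%). The genes with the smallest p were *H1f4*, a linker histone, at 1997 ± 84.9 for ND against 1558 ± 93.8 for HFD (SD, n = 3), *H4c4* at 2007 ± 222 and 1601 ± 124, and *H2bc7* at 410.3 ± 37.4 and 295 ± 60.8. Their log2 fold changes were -0.36, -0.32 and -0.49, with limma adjusted p-values of 0.181, 0.284 and 0.301, and all 3 passed with library weights, where 8.56% of all genes did. The mean level of the list was 0.057, -0.063 and 0.29 in ND and -0.26, -0.071 and 0.045 in HFD, so the diets overlapped and ND replicate 3 was the highest library. The median was -0.060 when ND replicate 3 was left out and -0.11 when HFD replicate 1 was. Genes of the same histone family can be alike in sequence, so single levels can depend on how shared reads were assigned. Shared words were not computed for these genes.

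Of 28 genes listed for p53 (its targets and *Trp53* itself), 26 were in the table and 17 were lower in HFD (65.4%, against 51.1% of all genes, median -0.089). The lists share members: *Gtse1* (-0.27) and *Ckap2* (-0.15) were also counted with the further G2/M genes. *Ccng1* (-0.016) was also counted with the further kinases, D cyclins and inhibitors. At an unadjusted p under 0.05, 2 were lower (7.69%, near the 5.18% of all genes). *Gdf15*, a stress-induced cytokine, was at 698, 581 and 738 in ND and at 487, 432 and 477 in HFD, without overlap (log2 fold change -0.52, SE 0.10, limma adjusted p 0.181), and it too passed with library weights. *Pmaip1*, which encodes the death protein NOXA, was at -0.25 (limma adjusted p 0.435). *Plk3*, a stress kinase, was higher in all 3 HFD libraries at 46.5 to 49.2, against 28.4 to 43.7 in ND (log2 fold change 0.49, SE 0.23, limma adjusted p 0.499).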
